A study of Drosophila melanogaster with 8 samples.

Results

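The genes described here are long non-coding and antisense RNAs of Drosophila melanogaster, measured on Affymetrix arrays in S2 cells, an established line with features of blood cells (hemocytes). They were found by name: a probe set belonged if the platform annotation gave it exactly 1 gene, and the symbol of that gene began with lncRNA: or asRNA:. lncRNA:roX1, lncRNA:roX2 and lncRNA:CR32368 were left out by the same rule. It gave 104 probe sets for 87 genes, 74 with the prefix lncRNA and 13 with the prefix asRNA, out of 11982 genes with a probe set. Where a gene had several probe sets, the one with the highest mean intensity over the 8 arrays stood for it.

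The cells first received double-stranded RNA, either non-specific (control) or against dSTING (dSTING RNAi), the fly homologue of the cyclic dinucleotide receptor STING. After 3 days came a second transfection, with double-stranded DNA 90 nucleotides long (called dsDNA) or with lipofectamine alone (called mock), and RNA was taken 24 hours later. The 4 groups are thus both kinds of cell with either treatment. All of them carried a double-stranded RNA and a second transfection, and each had 2 arrays. Whether both arrays of a group stem from separate cultures is not stated in the labels. A p-value here reflects array-to-array spread alone, which may be technical.

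Long non-coding RNAs are transcripts without a long reading frame. Some bind chromatin or proteins, some hold nuclear bodies together, some are precursors of small RNAs, and a few turned out to encode short peptides. Antisense RNAs are transcribed from the strand opposite to another gene. In flies many such RNAs are made mainly in testis, in the nervous system or at single stages of development. The labelling kit used here copies RNA from its poly(A) tail.

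Depth in reads does not apply to arrays, and their number limits the precision. Over the probe sets of each array, intensities had a median of 1.18 to 1.22 and a mean of 21.7 to 22.5. The deposited values never lie under 1, and the value of 1 is called the floor here. A level is the mean over the 8 arrays of log2(intensity + 1), so that a level of 2 corresponds to an intensity of 3 and a level of 3 to an intensity of 7. Sting, the target of the RNA interference, had 48.7 to 53.1 in the 4 control arrays and 3.45 to 8.05 in the 4 RNAi arrays, which follows the sample titles and not the genotype tag. Of 16 measured hemocyte markers 8 lay above a level of 3, as did 0 of 14 measured markers of fat body, muscle, neurons and glia, germline and gut. On the first principal component of the probe sets above a level of 3, which held 52.1% of the variance, control mock array 2 lay at 12.2 and dSTING RNAi dsDNA array 2 at -12.5, with the other arrays between -3.05 and 5.55.

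Most of these RNAs gave little or no signal in S2 cells. Only lncRNA:CR42862 and lncRNA:alphagamma-element:CR32865 lay above a level of 3, which is 2.3% of the 87, beside 29.6% of the 11982 genes at 1 probe set each and 22.3% of all 18769 probe sets. A further 5 lay between levels of 2 and 3: lncRNA:CR43337, lncRNA:mimi, asRNA:CR43944, lncRNA:CR42549 and lncRNA:CR30055. Together these 7 make 8.05% of the 87, beside 39.3% of all genes. The lowest of the 7 had a level of 2.12 (lncRNA:CR30055), and the first below them 1.96 (lncRNA:CR32027). These shares describe how the RNAs lie on this array, with no test of the difference. In a bulk sample fewer cells that make an RNA and less of it per cell cannot be told apart. Some of these genes have probe sets that disagree, as given below, so low signal is not read as low expression.

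**Figure D1:**
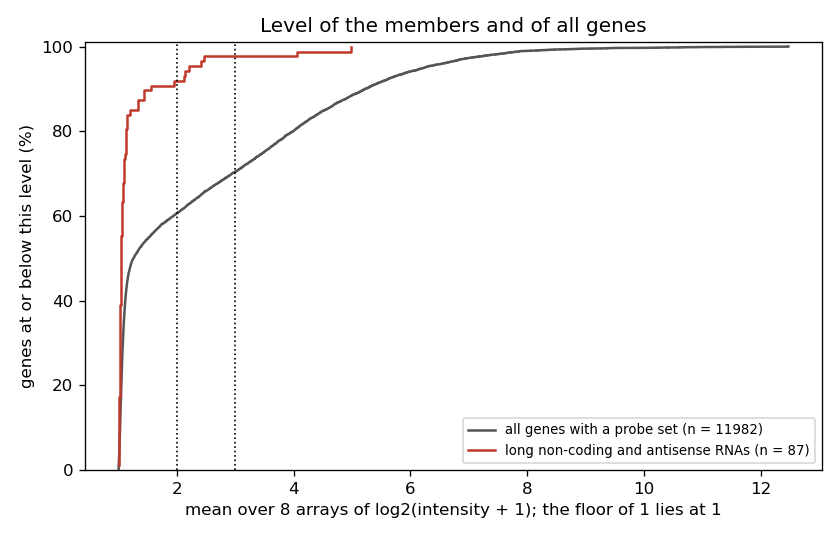
Cumulative share of genes (percent, vertical axis) at or below a level (mean over 8 arrays of log2(intensity + 1), horizontal axis) for the 87 long non-coding and antisense RNAs and for all 11982 genes with a probe set, with dotted lines at levels of 2 and 3. The line of the 87 RNAs rises almost at once and leaves 7 above a level of 2 and 2 above a level of 3.

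Most of the other 80 RNAs stayed near the floor, and lncRNA:CR32027 read the highest of them, at 2.03 to 3.75. In 76 of the 80 every array read under 2, and in 72 every array read under 1.5. Exactly at the floor were 251 of the 696 values of the 87 RNAs (36.1%), beside 22% of the values of all probe sets and 16.7% at 1 probe set per gene. In single arrays the share at the floor ran from 28.7% (dSTING RNAi mock array 2) to 42.5% (dSTING RNAi mock array 1), so that the extremes came from the same group. No RNA sat at the floor in all 8 arrays, 27 did so in 5 or more, and 23 in none. Values at the floor have no order, and for these RNAs a difference between groups was not detectable on this array rather than absent.

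Values are given for each kind of RNA, with no test of the difference between kinds. Of the 74 lncRNA genes 6 lay above a level of 2, and of the 13 asRNA genes 1 did, asRNA:CR43944. The share of values at the floor was 36.1% for lncRNA genes and 35.6% for asRNA genes. After asRNA:CR43944, the asRNA genes with the most signal were asRNA:CR43964, at 1.67 to 2.33, and asRNA:CR42871, at 1.44 to 2.06. asRNA:Eig63F-2, named for the ecdysone-induced locus where it lies, was above the floor in 1 array only, at 1.08.

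A list of 36 RNAs with a described role or setting held 6 of the 87, and the rest of that list was not analysed here. Of these 6, 2 lay above a level of 2 and 4 did not, beside 7 and 80 of all 87. lncRNA:iab8, a transcript of the bithorax Hox cluster and the precursor of a microRNA, had 5 probe sets, which read 1 to 1.34 in all arrays. lncRNA:cherub, described in brain tumour stem cells of the fly, had 1.05 to 1.36. lncRNA:noe, described in the nervous system, was at the floor in 6 arrays and reached 1.24 in dSTING RNAi dsDNA array 2. lncRNA:CR33942, described as promoting Toll and Imd responses, had 1 to 1.22. So near the floor, a change of lncRNA:CR33942 with dsDNA or with the loss of Sting was not detectable rather than absent. The remaining 2 of the 6, lncRNA:alphagamma-element:CR32865 and lncRNA:CR30055, were among the 7 above a level of 2.

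lncRNA:CR42862 had intensities of 32.2 and 24.7 in control mock, 32.2 and 33.0 in control dsDNA, 30.6 and 29.6 in dSTING RNAi mock, and 28.0 and 37.4 in dSTING RNAi dsDNA cells. The groups overlapped, and the lowest and the highest value came from the same arrays that stood apart on the first principal component. Its mean difference between RNAi and control cells was 0.04 on the log2 scale (95% interval -0.27 to 0.35, adjusted limma p 1, n = 4 a side), and between dsDNA and mock 0.15 (-0.15 to 0.46, adjusted limma p 0.894). Without the arrays that stood apart these values were -0.15 and -0.04, so that neither direction held. The signal rests on 1 of its 3 probe sets: the other 2 read at most 1.82 and 1.17 in any array. In the reference annotation the gene overlaps CG33229, a protein-coding gene with an intensity of 10.8 to 24.6 and a mean knockdown difference of -0.32 (SE 0.23, adjusted limma p 0.993).

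lncRNA:alphagamma-element:CR32865 comes from the alpha-gamma repeats at a heat shock locus, where Hsp70Ba is its nearest protein-coding gene. Its intensities were 16.6 and 17.2 in control mock, 16.5 and 16.4 in control dsDNA, 12.8 and 14.8 in dSTING RNAi mock, and 16.7 and 14.5 in dSTING RNAi dsDNA cells. Both RNAi mock arrays lay below all 4 control arrays, while 1 RNAi dsDNA array lay within the control range. The knockdown difference was -0.28 in mock-treated cells (95% interval -0.51 to -0.06, unadjusted limma p 0.023, adjusted 1) and -0.08 with dsDNA (-0.31 to 0.14, adjusted limma p 1). With 1 array left out the difference in mock ran from -0.38 to -0.18, the latter without dSTING RNAi mock array 1. Averaged over both treatments it was -0.18 (-0.34 to -0.02, unadjusted limma p 0.0321, adjusted 0.993), which did not pass the threshold. Its probe set carries the suffix that Affymetrix gives to sets whose probes can match other transcripts, so the value is uncertain. It was the 1 such set among the 87, and another 12 carried the suffix for probes shared by several transcripts.

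lncRNA:CR42549 had the smallest p of the 87 RNAs in 6 of the 7 contrasts, and none of its differences passed the threshold. Those contrasts combine the same 4 group means and share its small spread, so they are not separate support. Its intensities were 3.48 and 3.53 in control mock, 3.89 and 3.93 in control dsDNA, 2.83 and 3.07 in dSTING RNAi mock, and 3.34 and 3.34 in dSTING RNAi dsDNA cells. All 4 RNAi arrays lay below all 4 control arrays, and within each kind of cell both dsDNA arrays lay above both mock arrays. The mean knockdown difference was -0.19 (SE 0.03, 95% interval -0.25 to -0.12, n = 4 a side), with an unadjusted limma p of 0.000676 and an adjusted p of 0.8. As a ratio, the mean intensity was 1.18-fold lower in RNAi cells (3.15 against 3.71). The knockdown difference was -0.18 (SE 0.04) with dsDNA and -0.19 (SE 0.04) in mock. The difference with dsDNA was 0.12 (SE 0.04) in control and 0.14 (SE 0.04) in RNAi cells. In RNAi cells it ran from 0.09 to 0.18 with 1 array left out, with 0.09 reached without dSTING RNAi mock array 1. The mean dsDNA difference was 0.13 (SE 0.03, unadjusted limma p 0.00349, adjusted 0.894), and the interaction 0.01 (95% interval -0.12 to 0.14).

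The pooled SD within groups of lncRNA:CR42549 was 0.0322 on the log2 scale, while the other 6 RNAs above a level of 2 had 0.0986 to 0.196. With 1 array left out the mean knockdown difference ran from -0.21 to -0.16 and its adjusted p did not fall below 0.511. The gene overlaps mura, a protein-coding gene with an intensity of 3.58 to 6.19, whose mean knockdown difference was -0.06 (SE 0.11) and mean dsDNA difference -0.27 (SE 0.11), with adjusted limma p of 0.993 and 0.894. The summed intensity of the 3 measured neuron and glia markers was 6.21 to 6.87 in control and 7.39 to 8.83 in RNAi arrays. It was the only marker list with sums that separated: those of hemocyte, fat body, muscle, germline and gut markers overlapped between control and RNAi arrays. Most of this sum was elav, at 4.18 to 6.78, while nSyb reached 1.64 and repo 1.04. Over the 3 the median mean knockdown difference was 0.09, with 1 at an unadjusted limma p under 0.05 (beside 4.76% of all probe sets) and 0 called. The germline list also had 1 of 3 measured markers at such a p. Among all 14 measured markers of other cells there were 2, and 0 were called. The part of elav in the values of lncRNA:CR42549 was not tested.

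lncRNA:mimi had 4.48 and 5.18 in control mock and 5.50 and 4.20 in dSTING RNAi mock, against 3.90 and 3.99 in control dsDNA and 3.95 and 3.83 in dSTING RNAi dsDNA cells. All 4 dsDNA arrays lay below all 4 mock arrays, and the mock arrays were the more variable. The value of 5.18 came from control mock array 2, which stood apart, and the highest, 5.50, from dSTING RNAi mock array 1, which did not. The mean dsDNA difference was -0.24 (95% interval -0.45 to -0.04, n = 4 a side, unadjusted limma p 0.0292, adjusted 0.894), at mean intensities of 3.92 and 4.84. With 1 array left out it ran from -0.32 to -0.16. The dsDNA difference was -0.23 (SE 0.12) in control and -0.25 (SE 0.12) in RNAi cells, and the knockdown difference was -0.01 (-0.21 to 0.20). Its nearest protein-coding gene, CG13603, had 39.8 to 51.1 and a mean dsDNA difference of 0.03 (SE 0.09).

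lncRNA:CR43337 had 4.85 and 3.84 in control mock, 4.63 and 4.38 in control dsDNA, 4.31 and 4.27 in dSTING RNAi mock, and 4.58 and 5.44 in dSTING RNAi dsDNA cells. The groups overlapped, with the extremes again in the arrays that stood apart. The mean differences were 0.06 for the knockdown (95% interval -0.14 to 0.25) and 0.11 for dsDNA (-0.08 to 0.31). Its second probe set read at most 1.18, so its probe sets disagree as well. Among the 12 RNAs with several probe sets, lncRNA:CR42862, lncRNA:CR43337 and lncRNA:CR43242 had a probe set that reached 2 in some array, and in each of them the remaining probe sets stayed below 2.

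asRNA:CR43944 had 4.24 and 3.55 in control mock, 3.38 and 3.70 in control dsDNA, 3.20 and 3.58 in dSTING RNAi mock, and 4.14 and 3.31 in dSTING RNAi dsDNA cells. No group stood apart. The mean differences were -0.05 for the knockdown (95% interval -0.25 to 0.15) and 0.00 for dsDNA (-0.20 to 0.20). The gene it overlaps is fbl, which encodes a pantothenate kinase of coenzyme A synthesis. fbl read 3.26 to 5.07, with mean differences of -0.08 (SE 0.11) for the knockdown and -0.19 (SE 0.11) for dsDNA.

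lncRNA:CR30055, on the list as an immune-linked RNA, had 3.34 and 2.79 in control mock, 3.74 and 2.96 in control dsDNA, 3.47 and 4.11 in dSTING RNAi mock, and 3.58 and 3.04 in dSTING RNAi dsDNA cells. Both RNAi mock arrays lay above both control mock arrays, and with dsDNA the groups overlapped. The knockdown difference was 0.24 in mock (95% interval -0.09 to 0.57) and -0.01 with dsDNA (-0.34 to 0.32), with an adjusted limma p of 1 for each. lncRNA:CR32027, just under a level of 2, was the most variable of these RNAs, at 2.03 to 3.75 with both ends in control dsDNA cells.

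**Figure D2:**
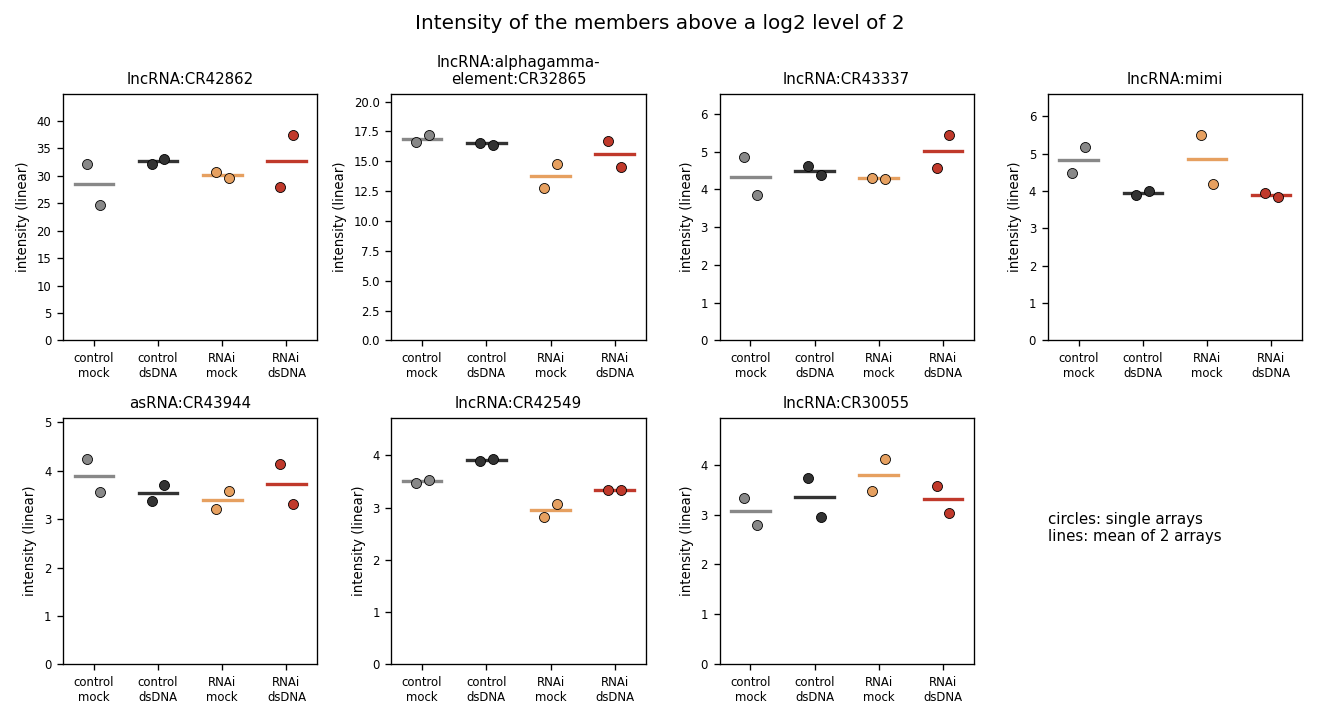
Intensity on a linear scale (vertical axes start at 0 and differ between panels) of the 7 RNAs above a level of 2 in each of the 4 groups. Circles are single arrays and lines the mean of 2 arrays. For lncRNA:CR42549 the RNAi arrays (2.83 to 3.34) lie below the control arrays (3.48 to 3.93), and for lncRNA:mimi the dsDNA arrays (3.83 to 3.99) lie below the mock arrays (4.20 to 5.50).

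**Figure D3:**
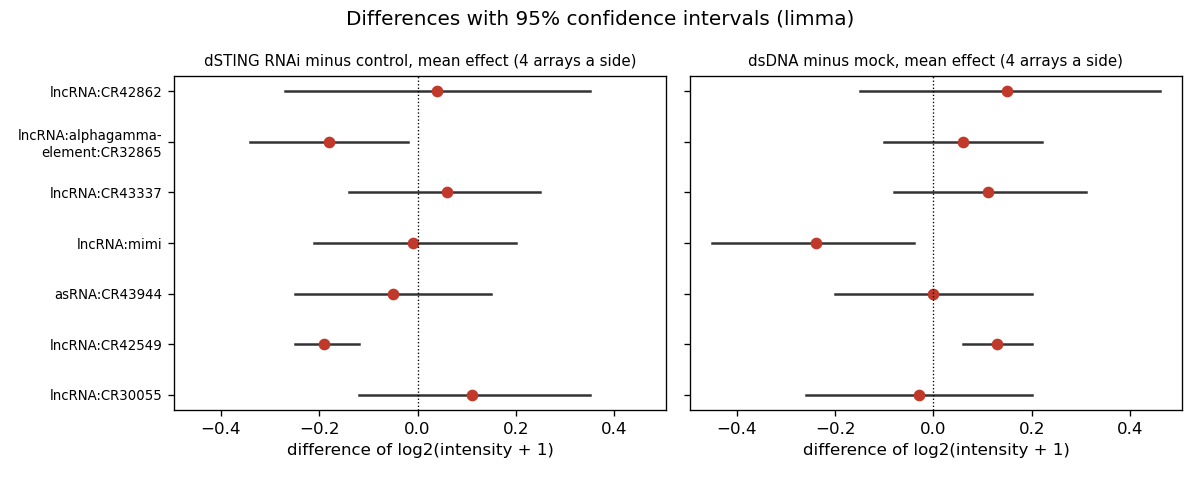
Differences of log2(intensity + 1) with 95% intervals from limma for the 7 RNAs above a level of 2, for dSTING RNAi minus control (left) and dsDNA minus mock (right), with 4 arrays on each side. Intervals leave out 0 for lncRNA:CR42549 on both sides, for lncRNA:alphagamma-element:CR32865 on the left and for lncRNA:mimi on the right. None passed after adjustment over all probe sets.

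The series set out to learn how loss of dSTING changes expression in cells given dsDNA. In that comparison limma called 0 of the 87 RNAs at an adjusted p of 0.05, and 0 of all 18769 probe sets (0%). At an unadjusted p under 0.05 there were 3 of 87 (3.45%), beside 4.51% of all probe sets: lncRNA:CR42549, lncRNA:CR43978 and lncRNA:CR43242. lncRNA:CR43978 had 1.24 and 1.15 in control dsDNA cells and was at the floor in both dSTING RNAi dsDNA arrays (adjusted limma p 1), so that no size of a change is given. lncRNA:CR43242 had 1.37 and 1.48 against 1.71 and 2.53, a difference of 0.35 (SE 0.13, adjusted limma p 1). The value of 2.53 came from dSTING RNAi dsDNA array 2, which stood apart, and without that array the difference was 0.16. Without dSTING RNAi dsDNA array 1 it was 0.54. The differences of the 87 ranged from -0.18 to 0.35. Their median absolute difference was 0.038, and 0.049 over all probe sets. Dim probe sets show less than their full change on this scale, and the 87 had more values at the floor. These medians thus come from sets of unlike level.

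In mock-treated cells the knockdown also gave 0 calls among the 87 and 0% overall. At an unadjusted p under 0.05 there were 4 of 87 (4.6%), 1 higher and 3 lower, beside 4.72% of all probe sets. The 3 smallest p belonged to lncRNA:CR42549, lncRNA:alphagamma-element:CR32865 and lncRNA:CR31044, a dim RNA at 1.24 and 1.51 in control mock against 1.16 and 1.05 in dSTING RNAi mock cells (-0.17, SE 0.06). The value of 1.51 came from control mock array 2, which stood apart. With 1 array left out the difference ran from -0.25 to -0.09, with -0.09 reached without control mock array 2. Differences ranged from -0.28 to 0.24. Averaged over both treatments 0 of 87 were called, beside 0% of all probe sets. The 3 with an unadjusted p under 0.05 (3.45%, beside 4.76%) were lncRNA:CR42549, lncRNA:CR43978 and lncRNA:alphagamma-element:CR32865, all lower.

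Arrays that do not overlap were also counted, from the same values as the tests. In 2 of the 87 (2.3%) all 4 RNAi arrays lay on 1 side of all 4 control arrays, beside 2.31% of all probe sets: lncRNA:CR42549 was lower, and lncRNA:CR31781, with at most 1.24 in any array, was higher. In 3 of the 87 (3.45%) the dsDNA and mock arrays did not overlap, beside 2.45% of all probe sets. lncRNA:mimi and lncRNA:CR41601 were lower with dsDNA and lncRNA:CR44036 higher. lncRNA:CR41601 reached 1.17 and lncRNA:CR44036 1.31 at most, so lncRNA:CR42549 and lncRNA:mimi were the members of these counts above a level of 2. Both shares lie near those of all probe sets, so nothing particular to these RNAs is read from the counts.

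**Figure D4:**
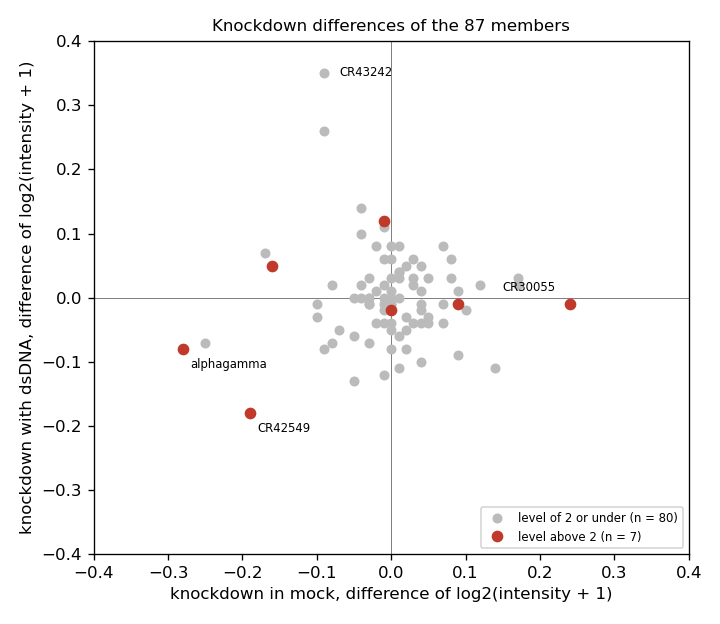
Knockdown difference of log2(intensity + 1) in mock-treated cells (horizontal axis) and in dsDNA-treated cells (vertical axis) for the 87 RNAs, which rest on different arrays. Red points are the 7 RNAs above a level of 2 and grey points the other 80. Most grey points lie near 0, but they reach 0.35 with dsDNA (lncRNA:CR43242) and -0.25 in mock (lncRNA:CR32027). lncRNA:CR42549 lies at -0.19 and -0.18.

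With dsDNA in control cells limma called 0 of the 87, beside 0% of all probe sets. At an unadjusted p under 0.05 there were 2 of 87 (2.3%), beside 5.25%: lncRNA:CR42549 and lncRNA:CR31044. The latter read 1.08 and 1.10 with dsDNA (-0.18, SE 0.06). Its difference ran from -0.26 to -0.10 with 1 array left out, with -0.10 reached without control mock array 2. Next in order was lncRNA:CR43830, at the floor in both control mock arrays and at 1.18 and 1.15 with dsDNA (unadjusted limma p 0.0521, adjusted 0.912), again with no size given. In dSTING RNAi cells the count was 0 called, beside 0%, and 3 at an unadjusted p under 0.05 (3.45%, beside 4.37%). These were lncRNA:CR42549, asRNA:CR30267 (0.16, SE 0.05), at 1.12 and 1.04 in mock and 1.34 and 1.33 with dsDNA, and lncRNA:CR40465 (-0.11, SE 0.04). Averaged over both kinds of cell the dsDNA effect gave 0 calls, beside 0%, and 4 at an unadjusted p under 0.05 (4.6%, beside 5.38%), led by lncRNA:CR42549, lncRNA:mimi and lncRNA:CR43830.

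Whether the response to dsDNA differed between control and RNAi cells was tested as an interaction. It was called for 0 of the 87, beside 0% of all probe sets. At an unadjusted p under 0.05 there was 1 (1.15%, beside 4.19%), lncRNA:CR31044, with 0.24 (SE 0.09, unadjusted limma p 0.0399, adjusted 1). lncRNA:CR43242 had 0.44 (95% interval -0.01 to 0.89) and lncRNA:CR40465 -0.11 (-0.24 to 0.01). In all 7 contrasts the median difference of the 87 lay between -0.0034 and 0.0022, and that of all probe sets between -0.0003 and 0.0037.

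Genes next to these RNAs were looked at by the reference annotation, Release 6 plus ISO1 MT. Each of the 13 asRNA genes overlaps a protein-coding gene, and 22 of the 74 lncRNA genes do. An overlapping gene was measured for 10 of the 13 and lay above a level of 3 for 3 of them, among them asRNA:CR31514, which overlaps the ribosomal protein gene RpS29, at 2620 to 3040. For lncRNA genes the numbers were 16 of 22, with 5 above a level of 3. lncRNA:CR32027 overlaps Indy, a citrate transporter gene at 270 to 400, whose knockdown difference with dsDNA was 0.02 (SE 0.16, unadjusted limma p 0.881, adjusted 1).

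Transcripts that encode proteins known to process, bind or degrade non-coding RNA were also looked at. Of 37 listed genes 31 had a probe set, and 23 of these lay above a level of 3: 8 of 14 of the nuclear exosome and its helpers, which degrade and trim nuclear RNA, 2 of 4 of nonsense-mediated decay, 6 of 6 snoRNP proteins, which form the particles that modify ribosomal RNA, and 7 of 7 omega speckle proteins, which bind a heat shock non-coding RNA. limma called 0 of the 31 in any of the 7 contrasts, beside 0% of all probe sets. At an unadjusted p under 0.05 there were 2 of 31 for the knockdown with dsDNA (4.51% of all probe sets), 3 for the knockdown in mock (4.72%) and 3 for its mean (4.76%). With dsDNA there were 2 in control cells (5.25%), 2 in RNAi cells (4.37%) and 1 on the mean (5.38%), and the interaction had 3 (4.19%). These are counts of a few genes, and nothing particular to the list is read from them.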

How the data were processed

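Total RNA from 8 samples was labelled with biotin by an Affymetrix 3' IVT kit, per the labels' protocols. Each deposited value is a linear intensity for a probe set on an array. How the authors computed and normalized these intensities, and with which software, is not given in the sources used here. Of 18952 probe sets 183 controls (AFFX) were left out and 18769 tested. Platform annotation, updated by gene identifier, gave 13647 of these 1 gene, 402 several and 4720 none. Another 9 probe sets that name such an RNA together with another gene were not used.

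Values were taken as log2(intensity + 1), so a dim probe set shows less than its full change. A single limma model (version 3.58.1, R 4.3.3) with 4 group means was fitted to all 8 arrays (lmFit, eBayes), with 4 residual degrees of freedom, raised to 5.32 by the prior. Tests were two-sided, and p-values were adjusted by Benjamini-Hochberg within each contrast over the 18769 probe sets (threshold 0.05). The model was also run on simulated data, but no result of that run is given or relied on here. How the model handles dim RNAs and values at the floor thus stays unknown. Ratios are of mean intensities. The 7 contrasts are the knockdown in each treatment, dsDNA in each kind of cell, their interaction and the mean effects.

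The RNAs, lists and tests were chosen with earlier results of these data known. Named were RNAs above a level of 3, the 3 with the smallest p in each contrast, and members of the lists. RNAs between levels of 2 and 3, and the other dim RNAs named, were added after their values were seen. No sequences are printed, since none were used here. Alternatives changed the pseudocount, normalization, filter, moderation, probe set choice, replicate block and arrays.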

Additional observations from a re-analysis of the deposited data

Results flagged for a closer look

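lncRNA:CR43242 read lower in both control dsDNA arrays (1.37 and 1.48) than in both control mock arrays (1.86 and 1.65), and higher in both dSTING RNAi dsDNA arrays (1.71 and 2.53) than in both dSTING RNAi mock arrays (1.58 and 1.60). The dsDNA arrays thus lay on opposite sides of the mock arrays in control and RNAi cells. By the same values the knockdown difference had opposite directions in mock and with dsDNA. The interaction was 0.44 (SE 0.18, unadjusted limma p 0.0533, adjusted 1), and 0.25 to 0.63 with 1 array left out. The lower end was without dSTING RNAi dsDNA array 2, one of the arrays that stood apart. The second probe set of the gene read 1 to 1.34.

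lncRNA:CR31044 was lower after the knockdown in mock-treated cells (1.24 and 1.51 against 1.16 and 1.05) and higher with dsDNA (1.08 and 1.10 against 1.15 and 1.25). Its interaction was 0.24 (SE 0.09, unadjusted limma p 0.0399, adjusted 1). It ran from 0.16 to 0.33 with 1 array left out, and was 0.13 without the 2 arrays that stood apart.

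lncRNA:CR40465 was higher after the knockdown in mock-treated cells (1.11 and 1 against 1.17 and 1.14) and lower with dsDNA (1.05 and 1.08 against 1.01 and 1). Its interaction was -0.11 (SE 0.05, unadjusted limma p 0.0707, adjusted 1). It ran from -0.15 to -0.07 with 1 array left out, with -0.07 reached without control mock array 2. All 3 lie near the floor, and none of these differences between groups passed the threshold.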

How the results depend on the processing

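limma called 0 of these RNAs in any contrast, in all 123 refits over 18 alternative settings, the replicate block included (0 called in each contrast); the smallest adjusted p was 0.345. The labels number the replicates and do not say whether the numbers pair the arrays. The correlations between groups of the difference between replicates ran from -0.737 to 0.384. The lowest was between control mock and dSTING RNAi dsDNA, the groups that hold the arrays that stood apart. These correlations thus cannot settle whether the arrays were paired. A filter at the median level kept 22 of the 87, and a filter at a level of 3 kept 2. The median difference over those 2 was -0.0459 for the knockdown with dsDNA, -0.0951 in mock and -0.0705 on the mean, 0.0825 for dsDNA in control cells, 0.1318 in RNAi cells and 0.1072 on the mean, and 0.0493 for the interaction. The median interaction of the 87 ran from -0.0095 to 0.0155 with 1 array left out.

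lncRNA:CR42862 changed sign. Its mean knockdown difference was -0.15 without the 2 arrays that stood apart and -0.06 to 0.14 with 1 array left out, its mean dsDNA difference -0.04 without those 2, and its interaction -0.31 to 0.10 with 1 array left out. The other differences named for a small p or a level above 3 kept their sign. A pseudocount of 16 shrinks dim RNAs by construction, and lncRNA:CR42549 then had a mean knockdown difference of -0.04. A level of 2 in place of 3 left 7 RNAs. RNAs whose RNAi and control arrays do not overlap numbered 1 (lncRNA:CR42549) after quantile normalization and 1 after median centring, and 0 of the 2 above a level of 3. For dsDNA that last count was also 0. The share over all probe sets is not given for these settings, so nothing is read from these counts. The cause of these changes was not tested.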
